A study of Rattus norvegicus with 6 samples.

Results

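The genes described here serve glucose sensing and the ATP-sensitive potassium (KATP) channel of the β-cell: Kcnj11, Abcc8, Slc2a2, G6pc2, Glp1r, Gipr, Ffar1 and Pcx, a list of 8. Members were taken from the array as probesets that the annotation pairs with exactly 1 of these symbols, and probesets of a gene were averaged. This gave 6 of the 8 genes on 8 probesets, among 12603 genes in all. Pcx was found under its current symbol Pc, of which it is a RefSeq synonym, and G6pc2 and Ffar1 were not analysed here.

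mRNA was measured on Affymetrix arrays in a clone of the rat insulinoma line INS-1 that expresses a GFP fusion of insulin 2 bearing the Akita mutation, C96Y, under doxycycline (Dox) control. The groups were cells given Dox (4 μg/ml in the labels, less in the study's methods) with 5 μM 4μ8c, an inhibitor of the IRE1 endoribonuclease, cells given the same Dox alone, and untreated cells. Treatment lasted 48 h, all cells grew in medium with 11.1 mM glucose and the drugs that select for both transgenes, and each of 2 independent experiments gave 1 array per group. A single clone was used. Since every culture given Dox also carried the mutant gene, what the drug does and what mutant proinsulin does cannot be told apart. The study's methods also list cells given the inhibitor alone, but none of the arrays read here came from such cells. In comparisons with Dox+4μ8c, the inhibitor's own effect and its effect on the response to Dox therefore cannot be told apart either.

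Glucose enters the rodent β-cell mainly through GLUT2 and is metabolised to ATP, which closes KATP channels, depolarises the membrane and opens calcium channels that trigger insulin release. Pyruvate carboxylase feeds pyruvate into the mitochondrial cycles that amplify this signal. The incretin receptors for GLP-1 and GIP raise cAMP and add to secretion only when glucose has already started it.

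Each probeset had been centred within an experiment in the deposited log2 values, so that levels are lost and only differences between arrays of 1 experiment can be read. In experiment 1 the middle array of the 3 was set to 0 in every probeset. A log2 change below averages the difference between 2 groups over the experiments. Its standard error (SE) and adjusted p came from limma fitted to all genes with the experiment as a term, and a gene passed the test at a Benjamini-Hochberg adjusted p under 0.05. Because levels are lost, the β-cell label could not be checked by marker level.

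Across the 6 arrays, Dox replicate 2 stood apart. Its probesets had an SD of 0.176, and the remaining arrays 0.050 to 0.117. The centring differed between the experiments, so that SDs are best read within 1 of them. In experiment 2, Dox+4μ8c had 0.087 and untreated cells 0.108. For the spiked-in poly-A transcripts, the 5′ signal of Dox replicate 2 relative to the 3′ signal was at a median of -0.65 (log2, untreated of the same experiment as base). The remaining treated arrays had -0.26 to 0.10. For transcripts of the cells, the same measure on Dox replicate 2 was -0.22 for β-actin and 0.00 for GAPDH. The remaining treated arrays had -0.08 to 0.21 for β-actin and -0.00 to 0.03 for GAPDH. The part of Dox replicate 2 in the results below was not tested beyond the values given without it. Among marker lists, 5 of 11 measured β-cell markers fell with Dox and 0 rose (3 fell without Dox replicate 2, 2 without either untreated array and 3 without either Dox+4μ8c array), while 1 of 5 α-cell markers fell (Gcg, -2.22, adjusted p = 0.00072; 0 of 5 without the experiment term). With Dox+4μ8c, 2 of the β-cell markers were lower than in untreated cells (0 without either untreated or either Dox+4μ8c array, and 0 without the experiment term). Against Dox, 1 β-cell marker, Mafa, and 1 α-cell marker, Gcg, were higher with Dox+4μ8c, and neither passed without either Dox+4μ8c array. Gcg stayed below untreated cells with Dox+4μ8c (-1.36, adjusted p = 0.0061, limma), and 0 genes passed in that comparison without the experiment term. Over all genes, 2.01% fell and 4.42% rose with Dox. With Dox+4μ8c, 1.13% were lower than in untreated cells and 0.175% were higher than with Dox. Leaving out a Dox+4μ8c array alters only the estimate of spread in the comparison of Dox with untreated cells, not the log2 changes. None of 3 measured δ, PP and ε-cell markers and none of 5 measured acinar and ductal markers passed in any comparison. For Ghrl, Cpa1, Cela1, Pnlip and Ctrb1 among them, every difference within experiment 1 was 0.00. For these genes only experiment 2 could show a change, so that not passing says little about them. Ins2 did not pass (-0.13, adjusted p = 0.21 with Dox), and whether its probesets read the GFP fusion transcript is not given in the sources used here.

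Both subunits of the KATP channel fell in cells given Dox. Kcnj11 dropped by 0.51 and Abcc8 by 0.47 on the log2 scale, to 0.70 and 0.72 times the signal of untreated cells. The remaining 4 genes were lower by smaller amounts that did not pass the test. In all, 2 of 6 genes (33.3%) passed as lower with Dox, and 0 as higher, against 2.01% and 4.42% of all genes, and the median log2 change was -0.23, compared with 0.011 over all genes. All 6 were lower with Dox in both experiments, as were 24.8% of all genes. In this share and those for both experiments below, a gene without a difference in an experiment counts in neither direction. Ldha, Vipr2 and Galr1, for example, had differences of 0.00 in experiment 1 in every comparison, which none of the 6 genes had. How many genes were of this kind was not counted, and they lower these shares. In RNA from a whole culture, less transcript per cell and fewer expressing cells cannot be told apart.

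With the inhibitor present, 1 of the 6 genes (16.7%), Kcnj11, was lower than in untreated cells past the test and 0 were higher, against 1.13% and 1.17% of all genes. Of the 6, 5 were lower in both experiments, as were 28.9% of all genes. The median log2 change of the 6 was -0.16, and -0.002 over all genes. When Dox+4μ8c was set against Dox, 5 of the 6 genes were higher in both experiments, against 19% of all genes, with a median difference of 0.17, compared with -0.014 over all genes. None of these differences passed (0 of 6, with 4 higher and 0 lower at an unadjusted p under 0.05, limma; 2.79% of all genes were higher and 8.44% lower at that p), and 0.175% of all genes passed as higher and 1.61% as lower. The comparisons share arrays, since the Dox arrays enter both the first and the last of them.

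**Figure D1:**
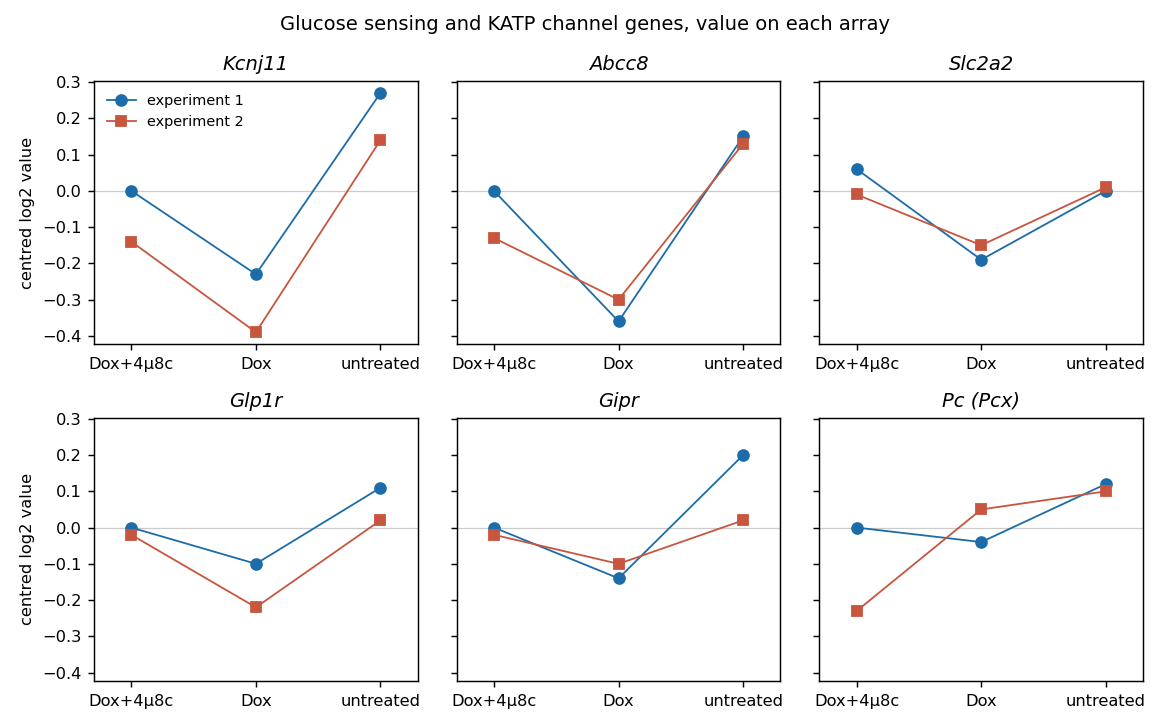
Centred log2 value (y axis) of each measured gene on each of the 6 arrays, by group (x axis); a line joins the 3 arrays of 1 experiment (circles, experiment 1; squares, experiment 2). Dox is the lowest of the 3 groups in both experiments for every gene except Pc, for which Dox+4μ8c was lowest in experiment 2, at -0.23.

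Kcnj11 encodes Kir6.2, the pore of the KATP channel. Its centred log2 value was 0.00 and -0.14 with Dox+4μ8c, -0.23 and -0.39 with Dox, and 0.27 and 0.14 in untreated cells (experiments 1 and 2). Dox was lowest and untreated cells highest in each experiment. The change with Dox was -0.50 and -0.53 in experiments 1 and 2, a mean of -0.51 (SE 0.05, 95% interval -0.62 to -0.40, adjusted p = 0.0032, n = 2 arrays per group, limma). Without Dox replicate 2 it was -0.50 (adjusted p = 0.0043).

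Kcnj11 stayed below untreated cells when the inhibitor was present, by the same amount in both experiments (-0.27 and -0.27, SE 0.05, adjusted p = 0.046, limma). This call lay close to the threshold and did not pass without the experiment term (adjusted p = 0.19), without Dox+4μ8c replicate 1 or 2 (adjusted p = 0.33 and 0.39) or without untreated replicate 1 or 2 (adjusted p = 0.17 and 0.25). Against Dox, Kcnj11 was 0.23 and 0.25 higher with Dox+4μ8c. That difference of 0.24 (SE 0.05, 95% interval 0.13 to 0.35) had an adjusted p of 0.07 over all genes and did not pass.

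Kcnj11 was read by 3 probesets that differed in the size of the change. Probeset 1387698_at had values of 0.00 and -0.19 with Dox+4μ8c, -0.27 and -0.70 with Dox, and 0.40 and 0.19 in untreated cells, a Dox change of -0.78 (SE 0.07). Probeset 1391007_s_at had 0.00 and -0.12 with Dox+4μ8c, -0.32 and -0.35 with Dox, and 0.36 and 0.12 in untreated cells, a Dox change of -0.57 (SE 0.06). When single probesets were the unit of the limma fit, these changes passed with adjusted p of 0.015 and 0.018. Probeset 1369782_a_at had 0.00 and -0.10 with Dox+4μ8c, -0.11 and -0.12 with Dox, and 0.05 and 0.10 in untreated cells, and its Dox change of -0.19 (SE 0.06) did not pass (adjusted p = 0.17). The direction was shared by the 3 probesets in both experiments. Which part of the transcript each probeset covers is not given in the sources used here, and in Affymetrix naming the ending _s_at marks probes that can match transcripts of more than one gene.

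**Figure D2:**
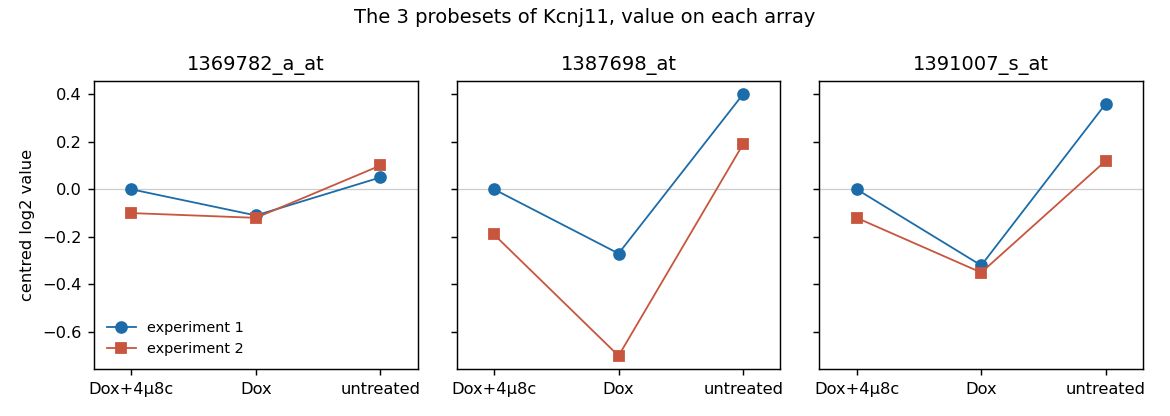
Centred log2 value (y axis) of the 3 Kcnj11 probesets on each array, by group (x axis), with lines joining the arrays of 1 experiment. Dox is lowest in every panel, and the spread between groups is narrow in 1369782_a_at (-0.12 to 0.10) and wide in 1387698_at (-0.70 to 0.40).

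Abcc8 encodes SUR1, the regulatory subunit that binds sulfonylureas and completes the β-cell channel with Kir6.2. Its value was 0.00 and -0.13 with Dox+4μ8c, -0.36 and -0.30 with Dox, and 0.15 and 0.13 in untreated cells. As for Kcnj11, Dox was lowest and untreated cells highest in each experiment. The change with Dox was -0.51 and -0.43 in experiments 1 and 2, a mean of -0.47 (SE 0.06, 95% interval -0.61 to -0.33, adjusted p = 0.0084, limma), and -0.54 without Dox replicate 2 (adjusted p = 0.0043). It did not pass without untreated replicate 1 or 2 (adjusted p = 0.061 and 0.066), nor after quantile normalization between arrays (adjusted p = 0.081).

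With the inhibitor, Abcc8 was 0.15 and 0.26 below untreated cells on the log2 scale, a mean of -0.20 (SE 0.06, 95% interval -0.35 to -0.06) that did not pass (adjusted p = 0.16, limma). Set against Dox, its value with Dox+4μ8c was higher by 0.36 and 0.17, and the mean of 0.27 (SE 0.06, 95% interval 0.12 to 0.41) did not pass either (adjusted p = 0.11). A single probeset reads this gene.

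**Figure D3:**
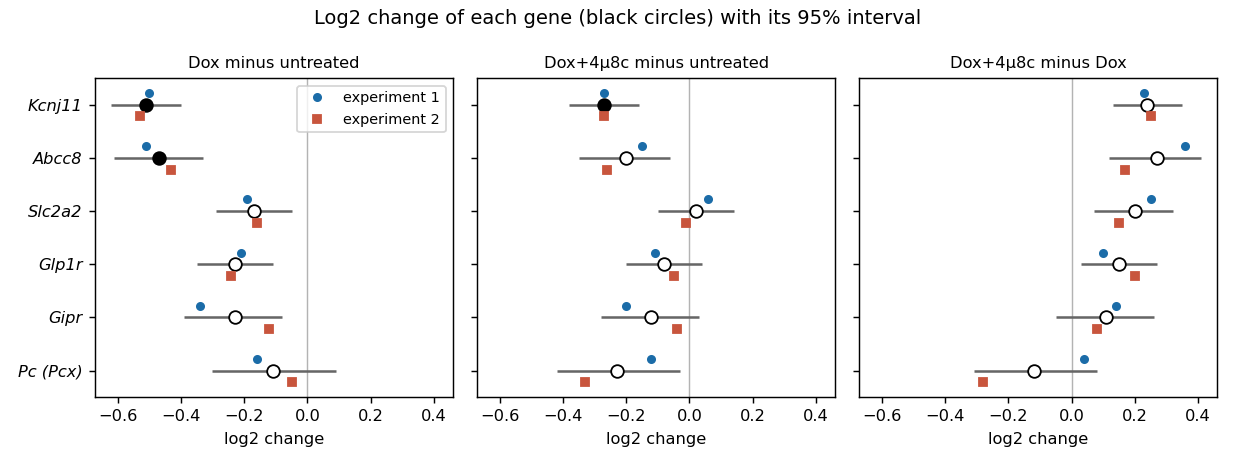
Log2 change (x axis) of each measured gene in the 3 comparisons (panels). Circles are limma estimates with 95% intervals, filled where the adjusted p was under 0.05, and the small symbols are the differences within experiments 1 and 2. Only the 2 KATP subunits are filled for Dox minus untreated, and 5 of 6 genes lie to the right of 0 for Dox+4μ8c minus Dox.

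Kcnj11 and Abcc8 are neighbours in the rat genome with 0 protein-coding genes between them in RefSeq (GRCr8). Of the genes flanking the pair, Ush1c, next to Abcc8, had a log2 change of -0.03 with Dox (adjusted p = 0.80, limma), and Kcnc1, farther out on that side, -0.19 (adjusted p = 0.072). On the other side, Ncr3lg1 was not analysed here, and Nomo1, the gene after it, rose by 0.26 with Dox (adjusted p = 0.048) and differed by -0.27 between Dox+4μ8c and Dox (adjusted p = 0.092). Abcc6, beyond Nomo1, was at 0.01 with Dox (adjusted p = 0.94). The flanking genes were looked up after the values of the pair were known.

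The genes whose pattern lay closest to each subunit were found by Euclidean distance over the 6 arrays, each experiment centred on its mean. For Kcnj11 these were Nkx2-2, which encodes a homeodomain transcription factor of the islet (distance 0.05), Rab3b, a small GTPase of secretory vesicles (0.08), and Mylk, myosin light chain kinase (0.09). Abcc8 ranked 11 among all genes for Kcnj11, at a distance of 0.12. For Abcc8 the closest were Nelfcd, of the negative elongation factor complex (0.07), Plbd2 (0.10) and the transcription factor gene Runx1 (0.11), and Kcnj11 ranked 4. Glp1r and Gipr lay farther from both, at 0.28 to 0.31. Slc2a2 lay at 0.38 from Kcnj11 and 0.31 from Abcc8, and Pc at 0.48 and 0.44. These distances describe 6 arrays and carry no test. Nkx2-2 had a log2 change of -0.52 with Dox (adjusted p = 0.0038), -0.30 with Dox+4μ8c (adjusted p = 0.045) and a difference of 0.22 between them (adjusted p = 0.12).

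Promoter sequences ran from 250 bases before to 50 after the start of the gene in RefSeq (GRCr8). They are shown side by side for Slc2a2 and Glp1r, the measured genes with an entry in the table used. Both had lower values with Dox in each experiment, as had all 6 measured genes, and neither change passed the test. Capitals mark matches to a searched motif on either strand. The Slc2a2 window is chr2:113540120-113540419 and the Glp1r window chr20:8973143-8973442, both on the plus strand.
Slc2a2: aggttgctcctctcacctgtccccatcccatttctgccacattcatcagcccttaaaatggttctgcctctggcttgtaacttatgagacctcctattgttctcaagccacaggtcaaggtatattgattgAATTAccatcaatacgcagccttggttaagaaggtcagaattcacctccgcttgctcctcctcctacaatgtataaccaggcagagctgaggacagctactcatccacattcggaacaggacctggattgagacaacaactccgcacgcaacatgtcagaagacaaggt
Glp1r: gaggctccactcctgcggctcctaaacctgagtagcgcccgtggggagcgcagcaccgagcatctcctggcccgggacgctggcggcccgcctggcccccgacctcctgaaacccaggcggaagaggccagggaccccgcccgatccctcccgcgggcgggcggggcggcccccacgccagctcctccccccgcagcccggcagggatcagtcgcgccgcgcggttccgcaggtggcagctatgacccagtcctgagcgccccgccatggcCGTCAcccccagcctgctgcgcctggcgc

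The pair differed in base composition, with 47.7% G and C in the Slc2a2 window and 76.0% in the Glp1r window, against a median of 51.7% over 33469 promoters. Slc2a2 held 1 homeodomain core (TAATT, read on the minus strand), which 28.5% of all promoters hold. Glp1r held 1 half-site of the cAMP response element (TGACG, on the minus strand, after the start of the gene), which 21.2% hold. Neither window held the full cAMP response element TGACGTCA (1.83% of promoters), the XBP1 site TGACGTGG (0.595%), the ER stress response element (0.0657%), the C/EBP-ATF response element TGATGNAA (3.98%), the MAFA core TGCTGAC (4.44%) or the NEUROD1 E-box CAGATG (16.6%). The half-site is contained in both TGACGTCA and TGACGTGG. A match describes the letters of these windows only.

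Slc2a2 encodes GLUT2, the glucose transporter of the rodent β-cell. It read 0.06 and -0.01 with Dox+4μ8c, -0.19 and -0.15 with Dox, and 0.00 and 0.01 in untreated cells. Dox was lowest in each experiment, and the order of Dox+4μ8c and untreated cells differed between the experiments. The change with Dox was -0.17 (SE 0.05, 95% interval -0.29 to -0.05) and did not pass (adjusted p = 0.11, limma). With Dox+4μ8c against untreated it was 0.02 (95% interval -0.10 to 0.14, adjusted p = 0.86), and turned to -0.02 without Dox+4μ8c replicate 1. Between Dox+4μ8c and Dox it was 0.20 (SE 0.05, adjusted p = 0.16), 0.25 in experiment 1 and 0.15 in experiment 2.

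Glp1r encodes the GLP-1 receptor. It had values of 0.00 and -0.02 with Dox+4μ8c, -0.10 and -0.22 with Dox, and 0.11 and 0.02 in untreated cells. The order was the same in both experiments, and the differences were small. The change with Dox was -0.21 and -0.24 in experiments 1 and 2, a mean of -0.23 (SE 0.05, 95% interval -0.35 to -0.11), at an adjusted p of 0.052 (limma), just outside the threshold. Without Dox replicate 1 it passed (-0.26, adjusted p = 0.037), and without Dox replicate 2 it was -0.19 (adjusted p = 0.18). With Dox+4μ8c, Glp1r was at -0.08 against untreated (SE 0.05, adjusted p = 0.52) and 0.15 above Dox (SE 0.05, adjusted p = 0.31).

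Gipr encodes the GIP receptor. It had 0.00 and -0.02 with Dox+4μ8c, -0.14 and -0.10 with Dox, and 0.20 and 0.02 in untreated cells. The order of the groups was the same in both experiments, but the drop with Dox was larger in experiment 1 (-0.34) than in experiment 2 (-0.12). The mean of -0.23 (SE 0.06, 95% interval -0.39 to -0.08) did not pass (adjusted p = 0.10, limma). With Dox+4μ8c, Gipr was at -0.12 against untreated (SE 0.06, adjusted p = 0.45) and at 0.11 against Dox (SE 0.06, 95% interval -0.05 to 0.26, adjusted p = 0.59).

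Pc encodes pyruvate carboxylase, the anaplerotic enzyme that turns pyruvate into oxaloacetate. It had values of 0.00 and -0.23 with Dox+4μ8c, -0.04 and 0.05 with Dox, and 0.12 and 0.10 in untreated cells. Untreated cells were highest, and the order of the treated groups differed between the experiments. The change with Dox was -0.11 (SE 0.08, 95% interval -0.30 to 0.09, adjusted p = 0.49, limma) and 0.00 without Dox replicate 1. Against untreated cells Pc was at -0.23 with Dox+4μ8c (SE 0.08, 95% interval -0.42 to -0.03, adjusted p = 0.25). The difference between Dox+4μ8c and Dox was 0.04 in experiment 1 and -0.28 in experiment 2, a mean of -0.12 (SE 0.08, adjusted p = 0.64) that became 0.02 without Dox+4μ8c replicate 2.

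From low to high, the order was Dox, Dox+4μ8c and untreated in both experiments for 4 of the 6 genes, Kcnj11, Abcc8, Glp1r and Gipr, and for 4.85% of all genes. The order is a description, since the comparisons share arrays. Among the 6 genes, the neighbouring groups in this order differed past the test for Kcnj11 only, between Dox+4μ8c and untreated cells.

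Other genes of the pathway were read from 5 lists with 116 entries, 98 of them measured. With Dox, 2 rose and 3 fell past the test, with a median log2 change of -0.03. These were 2.04% and 3.06% of the measured entries, against 4.42% and 2.01% of all genes, so that the shares lay near those over all genes and the calls below are values of single genes. With Dox+4μ8c against untreated 0 rose and 1 fell (1.02%, against 1.13% of all genes), and against Dox 1 was higher (1.02%, against 0.175%) and 0 lower.

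**Figure D4:**
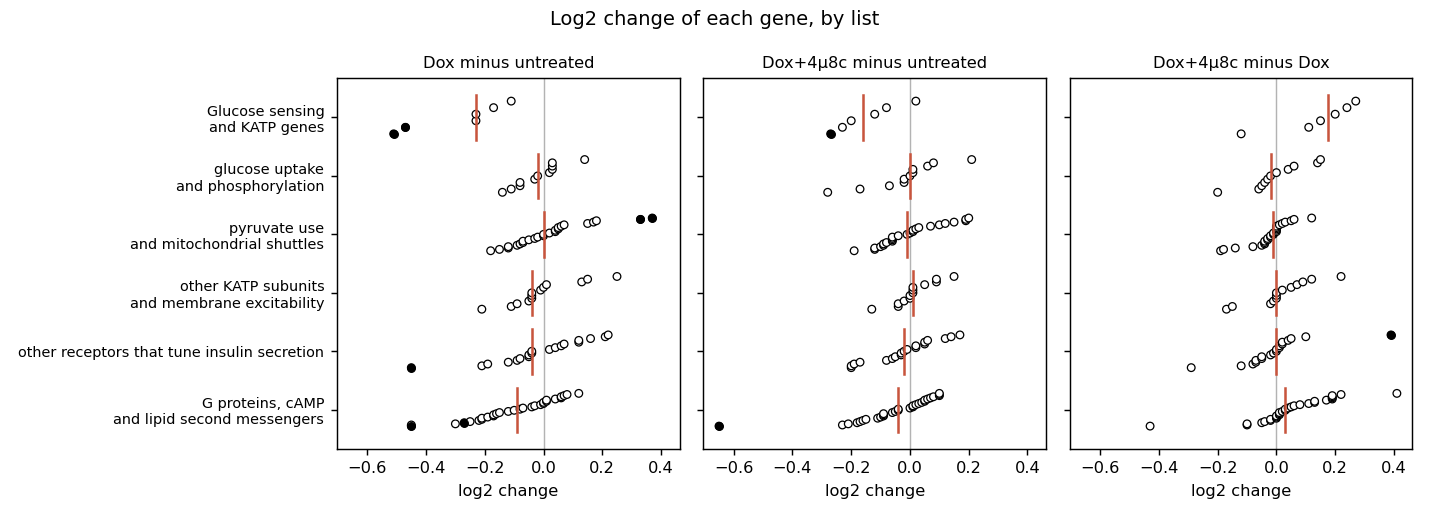
Log2 change (x axis) of each measured gene in the glucose sensing and KATP list (6 genes) and the 5 lists of other pathway genes, in the 3 comparisons (panels). Points are genes, filled where the adjusted p was under 0.05, and red bars are list medians. For Dox minus untreated the median is -0.23 for the glucose sensing and KATP list and -0.09 to 0.00 for the others.

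None of the 11 measured genes of glucose uptake and phosphorylation passed in any comparison. Slc2a1, which encodes GLUT1, had the smallest p among them, with a log2 change of -0.28 with Dox+4μ8c against untreated (SE 0.05, adjusted p = 0.056, limma), -0.08 with Dox (adjusted p = 0.44) and a difference of -0.20 between Dox+4μ8c and Dox (adjusted p = 0.17). Its values against untreated were thus lower with the inhibitor than without it, unlike those of Slc2a2, and neither difference passed.

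Of 25 genes of pyruvate use and the mitochondrial shuttles, 2 rose with Dox and 0 fell. Slc16a1, which encodes the monocarboxylate transporter MCT1 and is normally kept silent in β-cells, was 0.02 and 0.11 with Dox+4μ8c, 0.15 and 0.34 with Dox, and -0.12 and -0.13 in untreated cells. Its change with Dox was 0.37 (SE 0.06, adjusted p = 0.021, limma). Got1, the cytosolic aspartate aminotransferase of the malate-aspartate shuttle, was 0.00 and 0.06 with Dox+4μ8c, 0.04 and 0.30 with Dox, and -0.28 and -0.06 in untreated cells. Its change with Dox was 0.33 (SE 0.06, adjusted p = 0.031). For both genes the order ran opposite to that of the KATP subunits, with Dox highest. Against untreated cells they were at 0.19 and 0.20 with Dox+4μ8c, which did not pass (adjusted p = 0.20 and 0.19). The rises with Dox did not pass without the experiment term (adjusted p = 0.052 for Slc16a1 and 0.14 for Got1), without untreated replicate 1 (0.054 and 0.15) or 2 (0.14 and 0.13), or without Dox replicate 2 (0.05 and 0.085). That of Slc16a1 also did not pass with only the 2 groups of the comparison fitted (0.068), and that of Got1 after quantile normalization (0.079) or with single probesets (0.064).

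Of 13 measured genes of other KATP subunits and membrane excitability, none passed in any comparison. Abcc9, which encodes the SUR2 subunit of cardiac and vascular KATP channels, was at 0.13 with Dox (adjusted p = 0.45, limma). The L-type calcium channel genes Cacna1c and Cacna1d were at 0.01 and -0.01 with Dox (adjusted p = 0.90 for both). The smallest p of the list was that of Trpm4, a calcium-activated cation channel, at 0.25 with Dox (SE 0.06, adjusted p = 0.073) and -0.17 between Dox+4μ8c and Dox (adjusted p = 0.38). Abcc9, Cacna1c and Cacna1d were chosen after their values were seen.

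Of 19 other receptors that tune insulin secretion, 1 fell with Dox and 0 rose. Igf1r, the receptor for insulin-like growth factor 1, was 0.00 and -0.04 with Dox+4μ8c, -0.35 and -0.47 with Dox, and 0.05 and 0.04 in untreated cells. It stood well below both other groups with Dox, by a log2 change of -0.45 against untreated (SE 0.05, adjusted p = 0.0061, limma). Between Dox+4μ8c and Dox the difference was 0.39 (SE 0.05, adjusted p = 0.024), and with Dox+4μ8c Igf1r was at -0.06 against untreated (adjusted p = 0.62). The fall with Dox did not pass without untreated replicate 2 (adjusted p = 0.054), and the difference between Dox+4μ8c and Dox did not pass without Dox+4μ8c replicate 1 or 2 (adjusted p = 0.18 and 0.42), after quantile normalization (0.058) or with single probesets (0.072).

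Of 30 G proteins and genes of cAMP and lipid second messengers, 2 fell with Dox and 1 fell with Dox+4μ8c against untreated. Crem, a cAMP-responsive transcription factor, was 0.00 and -0.12 with Dox+4μ8c, -0.18 and -0.38 with Dox, and 0.17 and 0.16 in untreated cells, a Dox change of -0.45 (SE 0.06, adjusted p = 0.01, limma). Prkar2b, a regulatory subunit of protein kinase A, was 0.00 and -0.03 with Dox+4μ8c, -0.13 and -0.27 with Dox, and 0.12 and 0.03 in untreated cells, a Dox change of -0.27 (SE 0.05, adjusted p = 0.032). Both had Dox as the lowest group in each experiment. Crem did not pass without untreated replicate 2 (adjusted p = 0.072). Prkar2b did not pass without the experiment term (0.072), with only the 2 groups of the comparison fitted (0.081) or with single probesets (0.063). Nor did it pass without untreated replicate 1 or 2 (log2 change -0.27 and -0.28) or without Dox replicate 2 (-0.23).

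Adcy8, a calcium-stimulated adenylyl cyclase that takes part in the incretin response, was lowest with the inhibitor. Its value was -0.20 and -0.55 with Dox+4μ8c, 0.00 and 0.12 with Dox, and 0.31 and 0.23 in untreated cells. With Dox+4μ8c it fell by 0.65 on the log2 scale against untreated (SE 0.11, adjusted p = 0.043, limma), and with Dox the change of -0.21 did not pass (adjusted p = 0.34). The difference of -0.43 between Dox+4μ8c and Dox did not pass (SE 0.11, adjusted p = 0.15). The fall did not pass without the experiment term (adjusted p = 0.11), without Dox+4μ8c replicate 1 or 2 (0.12 and 0.24) without untreated replicate 1 or 2 (0.15 and 0.21), after quantile normalization (0.067) or with single probesets (0.10).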

How the data were processed

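Total RNA (200 ng per sample) was hybridized to Affymetrix 3′ IVT rat arrays. Per the submitters' processing notes the authors used RMA (version not stated), and the deposited values were read as log2. They are centred per probeset: the median over the 3 arrays of replicate 1 was 0 in 100% of probesets, against 0.836% for replicate 2, so that the centring of experiment 2 is not known in full. How probesets were kept is not given in the sources used here.

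Of 25476 probesets, 17978 non-control probesets had 1 gene symbol and were averaged to 12603 genes. 378 had several symbols and 7068 none. Levels are lost, so that no filter on low values was set. Genes were fitted with limma 3.58.1 in R 4.3.3 (lmFit, eBayes, two-sided, 3 groups plus replicate number, residual degrees of freedom 2, prior 4.25), with Benjamini-Hochberg adjustment over all genes of a comparison. The replicate number was taken as the experiment because the study's methods give 2 independent experiments and the values were centred by it. Deviations from the group means correlated over genes between groups with r of 0.03 to 0.10, which the centring makes uninformative. P-values measure the spread between these arrays only. The procedure was tested on simulated data. Python 3.11.15, pandas 2.3.3, numpy 2.4.6 and matplotlib 3.10.9 were used for counts and figures.

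The genes and lists were chosen with earlier results of these data known. Named genes were the members, pathway genes past the test (or that with the smallest p of a list) and, for members past the test, the 3 nearest in pattern, and cell type markers. The genes flanking Kcnj11 and Abcc8, and Abcc9, Cacna1c and Cacna1d, were added to these after their values were seen. Alternatives were the fit without the block, other scalings, probeset summaries, robust eBayes, a filter by SD, 2 groups only, another threshold and each array left out. The number of arrays limits the precision.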

Additional observations from a re-analysis of the deposited data

How the results depend on the processing

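The 6 genes in 3 comparisons gave 270 values under 15 alternatives. Of these, 252 kept direction and side of the threshold, 12 lost the call, 3 gained it and 3 reversed. Some alternatives overlap, so the tally overstates how many separate checks were made. Leaving out an array of the group outside a comparison gave the same fit as its 2 groups alone. The threshold of 0.1 could lose no call, and the median over probesets left every log2 change but that of Kcnj11 as it was. The fall of Kcnj11 with Dox passed under every alternative run (adjusted p from 0.00037 to 0.037, limma), and its log2 change lay between -0.78 and -0.50. With single probesets, the value taken for a gene was that of its probeset with the smallest p, here 1387698_at (-0.78). In that fit probeset 1369782_a_at, at -0.19, did not pass (adjusted p = 0.17). The reversed values were those of Pc for Dox against untreated without Dox replicate 1 (0.00, and -0.22 without Dox replicate 2) and for Dox+4μ8c against Dox without Dox+4μ8c replicate 2 (0.02, and -0.25 without its replicate 1), and of Slc2a2 for Dox+4μ8c against untreated without Dox+4μ8c replicate 1 (-0.02, and 0.07 without its replicate 2). The cause of these and of the shifts below was not tested. Of the glucose sensing and KATP genes, the 2 lower with Dox became 1 after quantile normalization and 1 to 3 with single arrays left out. The 1 gene lower with Dox+4μ8c than untreated became 0 without the replicate block, after quantile normalization, with the median over probesets, with single probesets and among only the genes with SD above the median, and 0 to 1 with single arrays left out. Against Dox, 0 genes higher became 1 at an adjusted p under 0.1.

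Counts over all genes, higher and lower, were 557 and 253 for Dox against untreated, 148 and 142 for Dox+4μ8c against untreated, and 22 and 203 for Dox+4μ8c against Dox. Without the replicate block they were 303 and 137, 0 and 0 (790 and 1153 at an unadjusted p under 0.05 with the block), and 14 and 129, and the block changed no call of the 6 genes other than that of Kcnj11 with Dox+4μ8c. Quantile normalization gave 349 and 88, 86 and 64, and 11 higher in the last. At an adjusted p under 0.1 the counts were 837 and 481, 273 and 331, and 46 and 333. With only 2 groups fitted they were 333 and 94, 318 and 394, and 14 higher in the last. Single probesets gave 164 lower with Dox, 57 and 33 with Dox+4μ8c, and 0 and 0 against Dox. With single arrays left out the ranges were 177 to 1104 and 61 to 655, 8 to 318 and 2 to 394, and 0 to 325 and 0 to 580. A group that lost an array kept 1, whose spread was taken to be that of the other groups.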
